A study of Mus musculus with 12 samples.

Results

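Metformin and FK506 (tacrolimus) were given to activated mouse T cells alone and together, which makes a factorial design in which the effect of metformin can be measured without FK506 and with it. The interaction of the drugs, described here, is the difference between these effects: the change from FK506 to Metformin+FK506 minus the change from Control to Metformin, on the log2 scale. All 12 of the 12 libraries of the series entered it, 3 in each of 4 groups, and it was estimated for 15197 of the 45777 genes listed, those whose FPKM reached 0.5 or more in 3 or more samples. FPKM is a measure of transcript level that divides fragments by transcript length and library size. A positive interaction means that metformin raised a gene more, or lowered it less, when FK506 was present, and a negative interaction means the reverse.

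CD4+ T cells from the spleen of wild type C57BL/6 mice, aged 7 weeks by the labels, were cultured for 3 days. The methods describe isolation of the CD4+ cells with magnetic beads against CD4 on separation columns, a step meant to leave B cells and other cells behind. Every culture, those of the Control group included, held anti-CD3 at 0.5 µg/ml, an antibody that stimulates the T cell receptor. The Control group received no drug, the Metformin group metformin, the FK506 group FK506, and the Metformin+FK506 group both. Doses of the drugs in these cultures are not given in the sources used here, and the methods name a slightly older age range of mice and soluble anti-CD28 among the conditions of activation. The labels do not say whether the 3 samples of a group came from separate animals or cultures, so p-values measure the spread between these samples, which may be technical.

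FK506 binds an immunophilin and blocks calcineurin, the phosphatase that lets NFAT transcription factors enter the nucleus after T cell receptor stimulation, and so limits the transcription of cytokine genes such as Il2. Metformin is a drug for diabetes that inhibits complex I of the mitochondrial respiratory chain and activates the energy sensor AMPK. Activated T cells depend on glycolysis for growth and cytokine production, and both NFAT and mTOR signalling feed that program, which is why the effect of an inhibitor of metabolism can be asked with and without calcineurin activity.

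The reads counted per library came to between 43402632 and 64290105. As a check of the label, the summed FPKM of 12 CD4 T cell defining genes ranged from 2525 to 2577 in Control, from 2399 to 2505 in Metformin, from 2098 to 2215 in FK506 and from 2236 to 2319 in Metformin+FK506, and none of the 12 was at the floor of 3 counts in any group. Other cell types were also seen in the FK506 groups. The summed FPKM of 10 B cell markers lay between 62.9 and 66.9 in Control, between 87.2 and 102 in Metformin, between 886 and 926 in FK506 and between 427 and 458 in Metformin+FK506. In bulk RNA, fewer cells of a type and less RNA per cell cannot be told apart. That of 10 myeloid cell markers lay between 4.4 and 4.57, between 8.73 and 10, between 1319 and 1368, and between 887 and 1007 in the same order, with 5 of the 10 members at the floor in Control and 5 in Metformin. The lower myeloid sum with metformin in FK506 cultures came from Lyz2, the lysozyme gene, which fell from a mean of 981 FPKM to 539, while 3 other members, C1qb, C1qc and Cd68, rose by 0.29, 0.39 and 0.18 on the log2 scale and the remaining 6 did not pass the test.

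The effect of metformin was different with and without FK506 in a large share of the genes. An interaction was called, at an adjusted p under 0.05 in the quasi-likelihood test of edgeR after Benjamini-Hochberg adjustment over all genes tested, for 7064 genes (46.5%), of which 3415 were positive (22.5%) and 3649 negative (24.0%). Of the gene lists examined, glycolysis, the response to hypoxia and the interferon-stimulated genes were mostly on the positive side, and the mitochondrial genome, mitosis, naive T cell genes and B cell markers mostly on the negative side. The absolute interaction was at least 1 on the log2 scale in 1813 of the called genes (11.9%). The median absolute interaction of all genes tested was 0.335, against a median standard error of 0.116.

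Metformin alone against Control moved 8511 genes past the same threshold (56.0%), and metformin added to FK506 moved 4660 (30.7%). The median absolute effect was 0.304 on the log2 scale without FK506 and 0.156 with it. These effects share no sample. Across the 14555 genes above the floor in every group, their Pearson's r was 0.060 and their Spearman's rho 0.097, a description across genes, which are not independent replicates.

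**Figure D1:**
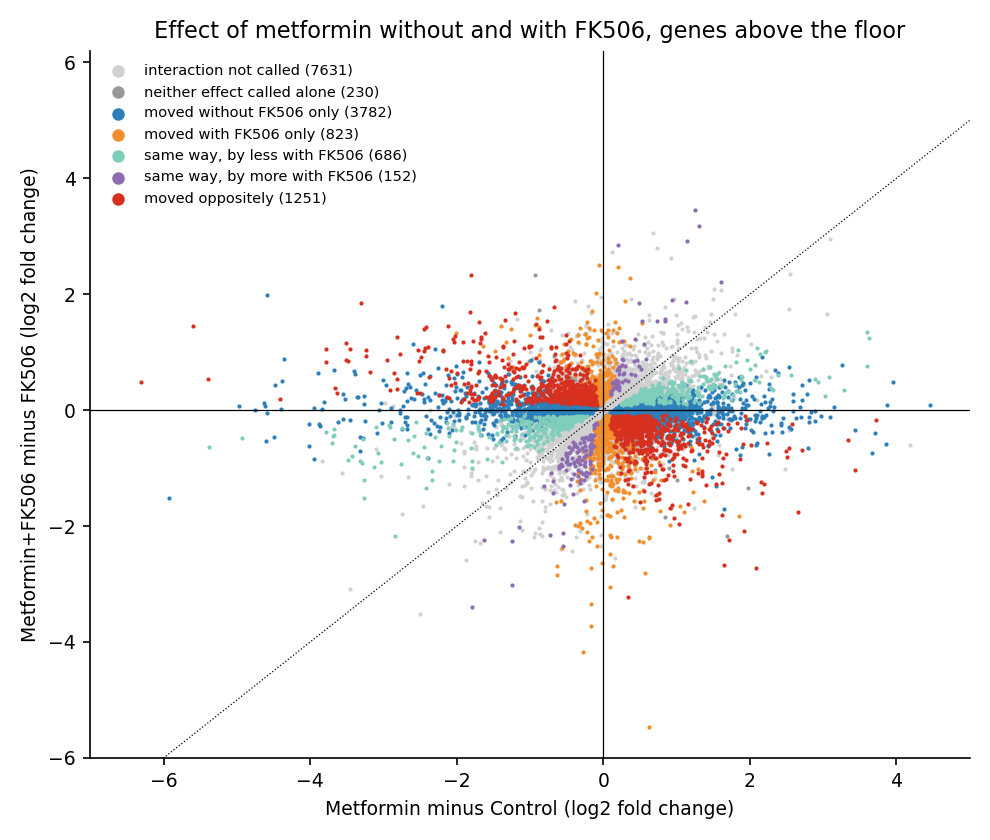
Each point is 1 of the 14555 genes above the floor in every group, with the log2 fold change of Metformin against Control on the horizontal axis and that of Metformin+FK506 against FK506 on the vertical axis. Points on the dotted line would have equal effects, colours give the class of the gene with its number of genes, and the cloud is wider along the horizontal axis than along the vertical axis.

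The called genes were sorted by the effect of metformin in each setting. Metformin moved 1292 genes in opposite directions (8.50%), 663 of them lower without FK506 and higher with it (4.36%) and 629 the reverse (4.14%). It moved 3843 genes past the threshold only without FK506 (25.3%), 1937 of them higher (12.7%) and 1906 lower (12.5%), and 841 only with it (5.53%), 359 higher (2.36%) and 482 lower (3.17%). For 3232 of the 3843 genes (21.3% of all tested) and 599 of the 841 (3.94%), the 95% interval of the effect in the other setting lay within 0.5 of 0. Another 697 genes moved the same way by less with FK506 (4.59%), 360 higher in both settings (2.37%) and 337 lower (2.22%). The same way by more moved 152 (1.00%), 53 higher (0.349%) and 99 lower (0.651%), and in 239 neither effect passed the threshold (1.57%). On the linear CPM scale (read counts scaled to library size), the interaction had the same sign in 96.8% of the called genes, which included all 1292 genes moved oppositely, but in 67.1% of those moved the same way by more with FK506.

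**Figure D2:**
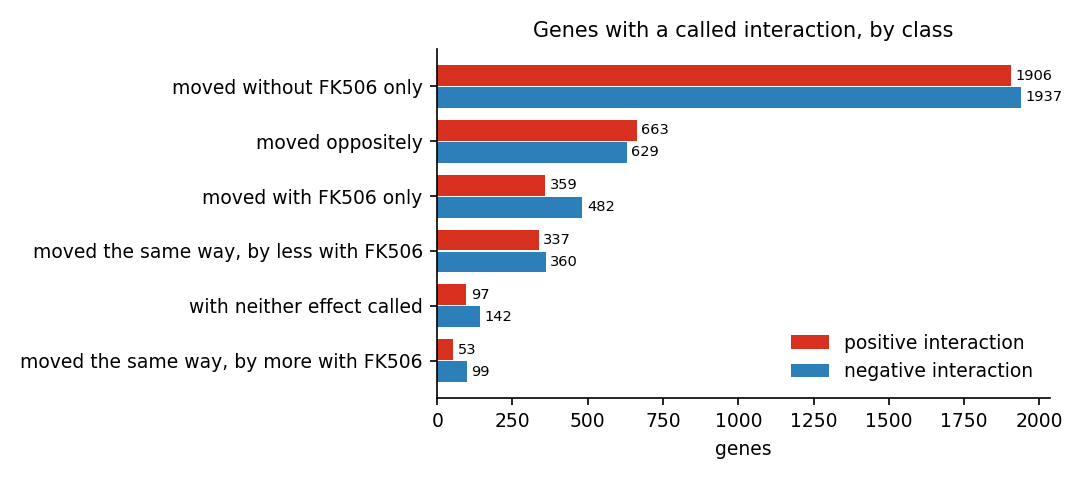
Bars give the number of genes with a called interaction in each class, separately for positive and negative interactions. Genes moved without FK506 only are the most numerous class, with 1906 positive and 1937 negative interactions.

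The samples of the compared groups did not overlap in FPKM for 65.0% of all genes tested without FK506, for 38.6% with FK506 and for 26.4% in both comparisons. Of the 1292 genes moved oppositely, 1104 did not overlap in either. Most of the opposite movements were small. The smaller of the effects had a median size of 0.290 on the log2 scale, and in 83 genes both effects were at least 1 in size.

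Most genes of glycolysis, which turns glucose into pyruvate and lactate, fell with metformin alone and rose when metformin was added to FK506. All 20 glycolysis genes had a called interaction, 19 positive and 1 negative, and 17 moved oppositely. The median interaction of the list was 1.81, against -0.020 over all genes tested, made of a median effect of -1.53 without FK506 and 0.31 with it, against 0.011 and 0.002 over all genes. Summed over the 20 genes, FPKM ranged from 12178 to 12417 in Control, from 4782 to 4807 in Metformin, from 2272 to 2371 in FK506 and from 2688 to 2879 in Metformin+FK506. The rise with FK506 thus started from a level below that of the Metformin group, and the Metformin+FK506 samples stayed below the Metformin samples.

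Slc16a3, the exporter of lactate, had FPKM values of 163, 162 and 160 in Control, 45.7, 49.4 and 45.6 in Metformin, 8.37, 8.34 and 8.51 in FK506, and 15.2, 14.3 and 15.6 in Metformin+FK506. Every Metformin sample was below every Control sample, and every Metformin+FK506 sample was above every FK506 sample. Its log2 effect of -1.81 without FK506 and 0.85 with it gave an interaction of 2.67 (SE 0.058, adjusted p = 1.83e-14). Hk2, the hexokinase induced on T cell activation, had 41.1, 42.3 and 41.8 FPKM in Control, 10.3, 10.5 and 10.7 in Metformin, 3.11, 3.43 and 3.31 in FK506, and 4.5, 4.28 and 4.55 in Metformin+FK506. The groups of each comparison were again apart, and the interaction was 2.49 (SE 0.056, adjusted p = 1.9e-14). Slc2a1, the glucose transporter GLUT1, behaved in the same manner, with an effect of -1.82 without FK506 and 0.35 with it. Aldoc, an aldolase, had the largest rise of the list with FK506, an effect of 1.10 after -1.37 without it.

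Ldha, lactate dehydrogenase A, had a mean FPKM of 1521 in Control, 515 in Metformin, 257 in FK506 and 296 in Metformin+FK506, with an interaction of 1.82. Gapdh, the dehydrogenase in the middle of the pathway, had means of 1863, 656, 338 and 384 in the same order, and its effect with FK506 was 0.21. Members outside the pattern were Slc2a3, a glucose transporter whose effect with FK506 was 0.0017 and did not pass the test, Pfkfb3, a regulator of phosphofructokinase that fell in both settings (-0.76 and -0.54) and whose interaction was negative on the linear scale (-20.2 CPM), and Eno2, an enolase that rose in both (1.13 and 0.69) and was the negative member.

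Hypoxia-response genes overlap in control with glycolysis, since the transcription factor HIF binds both sets. Of 17 such genes tested, 16 had a positive and 0 a negative called interaction, and 10 moved oppositely, with a median interaction of 1.48 and median effects of -1.10 without FK506 and 0.44 with it. Egln3, an oxygen-dependent prolyl hydroxylase that is itself induced in hypoxia, had FPKM values of 168, 168 and 164 in Control, 16, 13.7 and 15.2 in Metformin, 4.96, 4.7 and 4.02 in FK506, and 9.6, 7.79 and 7.18 in Metformin+FK506. The lowest Metformin+FK506 sample lay above the highest FK506 sample, and the interaction was 4.37 (SE 0.12, adjusted p = 1.45e-13). P4ha2, a collagen prolyl hydroxylase, had an interaction of 3.82, and Bnip3, a receptor for the removal of mitochondria, had effects of -2.86 and 0.63. Ak4, a mitochondrial adenylate kinase, had 20, 19.4 and 19.7 FPKM in Control, 5.09, 5.17 and 4.88 in Metformin, 0.506, 0.697 and 0.621 in FK506, and 1.11, 1.22 and 1.89 in Metformin+FK506. Its effects were -2.05 and 1.22, each with no overlap of the samples.

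Vegfa, an angiogenic factor, fell by 0.65 on the log2 scale without FK506 and rose by 1.10 with it. Bhlhe40, Bnip3l, Kdm3a and Pdk1 fell without FK506 and did not pass the test with it, where their effects lay between -0.0083 and 0.092. Car9, a carbonic anhydrase, was the member with no called interaction (0.71). The B cell marker sum was lower in every Metformin+FK506 sample than in every FK506 sample, while the glycolysis and hypoxia sums were higher. Among the 10 myeloid markers 3 rose and 1, Lyz2, fell between these groups, and the part of these cells in the result was not tested.

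The 250 bases before the annotated starts of the hypoxia-response and glycolysis genes were searched for the hypoxia response element core ACGTG. Both strands were searched, in RefSeq promoter windows of GRCm38.p6. Of the 17 hypoxia-response genes 14 matched the table, with 23 windows, of which 12 held the letters (52.2%), and of the 20 glycolysis genes 19 matched, with 31 windows, of which 13 held them (41.9%). The share was 16.6% among all 32851 windows and 21.3% among those of the genes tested. Some genes are in the table with several starts. The windows of 4 of the genes described above are shown, read in the direction of the gene, with 1 match of ACGTG in capitals.
Slc16a3 (chr11:120949020-120949064, + strand): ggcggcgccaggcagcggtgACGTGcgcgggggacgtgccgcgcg
Ak4 (chr4:101419470-101419514, + strand): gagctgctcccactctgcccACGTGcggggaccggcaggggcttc
Ldha (chr7:46845737-46845781, + strand): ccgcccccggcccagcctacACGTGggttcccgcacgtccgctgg
P4ha2 (chr11:54100826-54100870, + strand): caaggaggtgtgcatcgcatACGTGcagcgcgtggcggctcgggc
The matches begin 27, 213, 47 and 78 bases before the respective start. A match is a description of the sequence and not a bound site. Since HIF binds both sets, a higher share is tied to how the lists were made, whatever the effect of metformin.

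**Figure D3:**
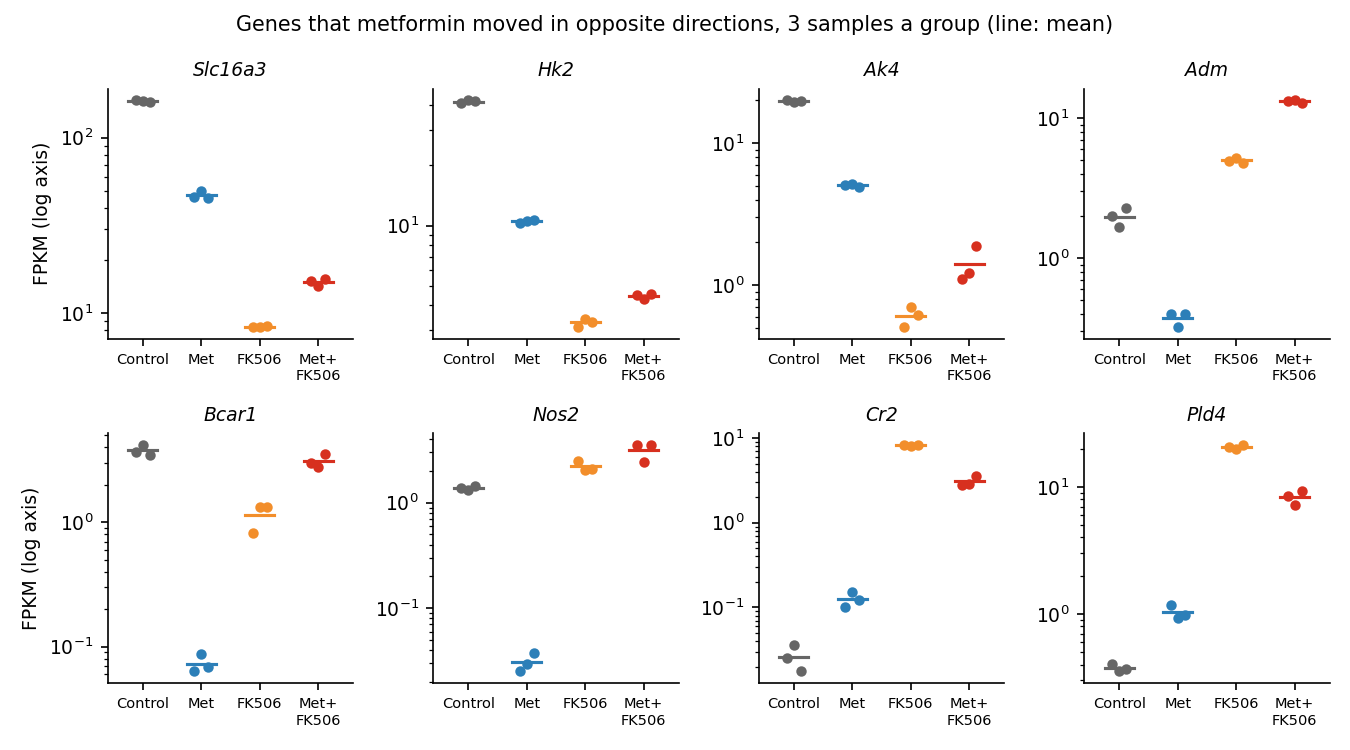
FPKM on a log axis of 8 genes that metformin moved in opposite directions, in the 3 samples of each group (points) with the group mean (line). Slc16a3, Hk2, Ak4, Adm, Bcar1 and Nos2 are lower in Metformin than in Control and higher in Metformin+FK506 than in FK506, and Cr2 and Pld4 show the reverse.

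Beyond these lists, the genes with the largest opposite effects were of varied function. Bcar1, an adaptor protein of integrin signalling, had the largest interaction of all genes above the floor. Its FPKM was 3.69, 4.22 and 3.46 in Control, 0.0632, 0.0876 and 0.068 in Metformin, 0.825, 1.32 and 1.32 in FK506, and 3.01, 2.8 and 3.55 in Metformin+FK506, so that metformin lowered it to near absence without FK506 and brought it close to the Control level with FK506. The interaction was 7.06 (SE 0.29, adjusted p = 9.63e-12). Mgarp, a mitochondrial protein, had an effect of -3.31 without FK506 and 1.85 with it. Adm, which encodes the peptide adrenomedullin, had 2, 1.67 and 2.28 FPKM in Control, 0.401, 0.322 and 0.398 in Metformin, 4.95, 5.22 and 4.79 in FK506, and 13.2, 13.4 and 12.9 in Metformin+FK506. All 3 Metformin+FK506 samples were above every other sample, and the interaction was 3.85 (SE 0.19, adjusted p = 1.34e-10).

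Nos2, the inducible nitric oxide synthase, fell by 5.39 on the log2 scale without FK506 and rose by 0.53 with it. Cavin1, a coat protein of caveolae, fell by 3.78 and rose by 1.06. Esm1, Fam171a1, Inpp5j, Podxl and Zcchc14 completed the set with the largest opposite effects in this direction, with interactions between 2.94 and 3.85. Inpp5j, Podxl and Zcchc14 were under 0.06 FPKM in every Control and Metformin sample, so their fall without FK506 rests on few reads. The fall of Esm1 rests on at most 18 counts in a Control and 7 in a Metformin sample. Esm1 and Podxl reached the level needed for testing only through the Metformin+FK506 samples, where they are high.

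The reverse pattern, higher with metformin alone and lower when it was added to FK506, held for most markers of B cells and for several genes of naive T cells. Of the 10 B cell markers, 9 had a negative called interaction and 0 a positive one, and 8 moved oppositely, with a median interaction of -1.60 and median effects of 0.51 and -0.99. Ms4a1, the surface protein CD20, had 3.54, 4.31 and 3.61 FPKM in Control, 5.49, 6.79 and 6.94 in Metformin, 99.6, 93.8 and 95.9 in FK506, and 30.9, 33.6 and 32.4 in Metformin+FK506. The FK506 samples were the highest of all, the addition of metformin brought them down, and the interaction was -2.27 (SE 0.11, adjusted p = 1.16e-10). Cr2, a complement receptor of B cells, had the largest interaction of the list, -3.61, from values between 0.0176 and 0.0359 in Control and between 8.13 and 8.36 in FK506. Fcer2a, the receptor CD23, and Blk, a B cell kinase, fell with FK506 by 1.12 and 0.71 after rises of 0.89 and 1.20 without it. Ebf1, a transcription factor that defines B cells, fell in both settings, by 0.57 without FK506 and by 0.83 with it. It had no called interaction (-0.26). Cd22 fell by 0.62 with FK506, and its effect of -0.17 without FK506 did not pass the test.

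Pld4, a phospholipase family member, had the same shape, 0.402, 0.353 and 0.368 FPKM in Control, 1.17, 0.929 and 0.984 in Metformin, 20.6, 20 and 21.5 in FK506, and 8.51, 7.19 and 9.26 in Metformin+FK506. Havcr1, which encodes the surface receptor TIM-1, rose by 2.65 and fell by 1.76. Grm6, Stxbp6, Oosp1, Shank1 and Amn completed the largest opposite effects in this direction, with interactions between -4.33 and -2.81, and their values in Control stayed under 0.3 FPKM. Grm6, Stxbp6 and Amn reached the level needed for testing only through the FK506 samples, the group where they are high, so their difference from FK506 is tied to that selection. The rise of Grm6 without FK506 rests on at most 8 counts in a Control and 24 in a Metformin sample, and that of Amn on at most 6 and 16. Shank1 lost its call with DESeq2 (-3.38). The B cell marker sum moved in the same directions as these genes, and its part in them was not tested. Nxpe2, which fell by 1.03 with FK506, was also among the 10 most negative interactions (-4.46), but 2 of its 3 Control values were 0.

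Genes of naive T cells and of homing to lymphoid organs had 14 negative and 2 positive called interactions among 16, and 7 moved oppositely. The median effect was 0.37 without FK506 and -0.18 with it. Ccr7, the receptor that guides T cells to lymph nodes, rose by 0.63 on the log2 scale without FK506 and fell by 0.81 with it. Txnip, an inhibitor of glucose uptake, had 10.1, 10.4 and 10.4 FPKM in Control, 13.7, 13.4 and 12.8 in Metformin, 106, 101 and 96.3 in FK506, and 42.5, 44.7 and 43.8 in Metformin+FK506, which gave an interaction of -1.52 (SE 0.062, adjusted p = 1.08e-11). The samples of the groups compared were apart in both settings, with the larger change on the FK506 background. Dapl1, a gene of resting T cells, had effects of 1.30 and -1.08. Tcf7, the transcription factor TCF-1, had values of 47.7, 48.2 and 47.1 in Control and 151, 148 and 148 in Metformin, but 348, 344 and 336 in FK506 and 352, 339 and 348 in Metformin+FK506. It rose only without FK506, and its effect of 0.034 with FK506 did not pass the test. Igfbp4, a secreted binding protein for insulin-like growth factors, had the larger of the 2 positive interactions, with the values 4.97, 4.93 and 5.8 in FK506 and 33.2, 35.4 and 41.5 in Metformin+FK506 and an interaction of 2.65. The other was that of Foxo1, a transcription factor of quiescent T cells, which fell in both settings and by less with FK506 (interaction 0.15). For Igfbp4 the Metformin+FK506 samples were the highest of the 12, although FK506 alone had the lowest values. Some of these genes are also expressed by B cells, whose marker sum was lower in Metformin+FK506 than in FK506, and its part in the result was not tested.

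**Figure D4:**
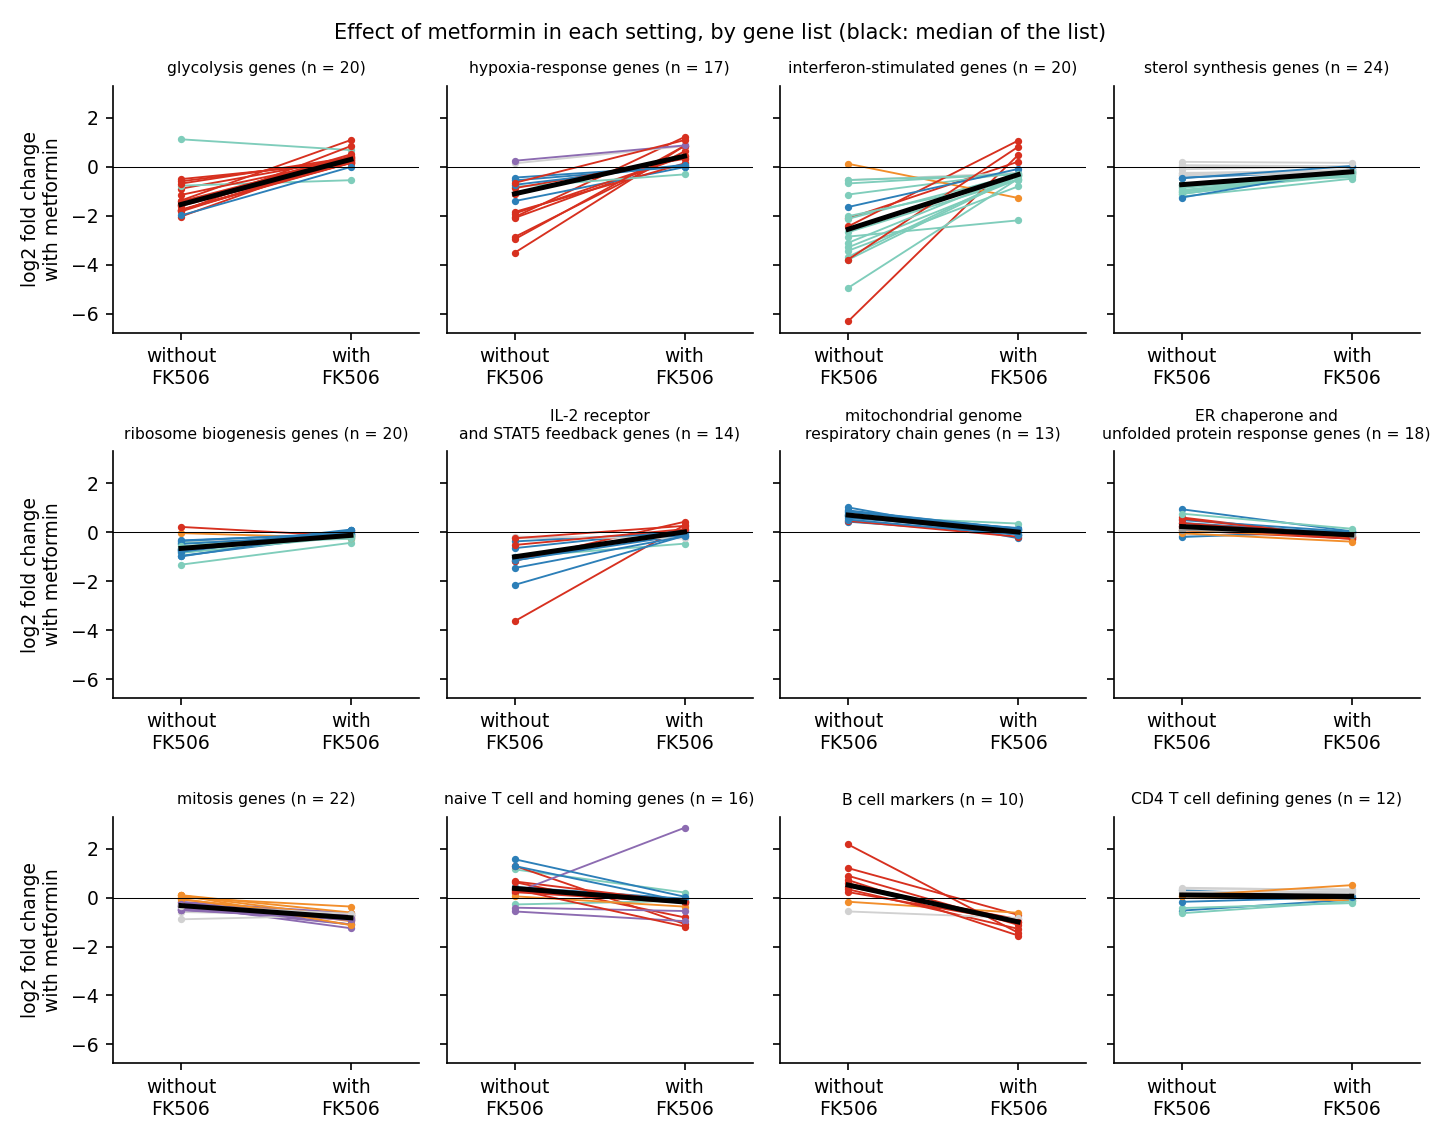
Log2 fold change with metformin of each member of 12 gene lists, without FK506 (left end) and with FK506 (right end), and the median of the list (black). Red lines are genes moved oppositely, blue moved without FK506 only, orange moved with FK506 only, green moved the same way by less and purple by more with FK506, and grey lines have no called interaction. Glycolysis and hypoxia-response genes cross from below 0 to above it, and mitosis genes go further down.

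Interferon-stimulated genes, which answer type I interferon, had 18 positive and 1 negative called interactions among 20. The median effect was -2.55 without FK506 and -0.31 with it, and 13 of the 20 fell in both settings, by less with FK506. Oas1a, an antiviral oligoadenylate synthetase, had FPKM values of 28.9, 26.5 and 26.1 in Control, 0.723, 0.793 and 0.979 in Metformin, 9.3, 8.41 and 8.32 in FK506, and 6.55, 5.56 and 5.6 in Metformin+FK506. Both comparisons were without overlap, and the interaction was 4.46 (SE 0.13, adjusted p = 1.75e-13). The gene has close paralogs, and its counts may be shared with them. Ifi44, an interferon-induced gene, had an interaction of 6.79, with 20.3, 19.1 and 20.1 FPKM in Control, 0.263, 0.211 and 0.269 in Metformin, 0.345, 0.36 and 0.277 in FK506, and 0.54, 0.419 and 0.417 in Metformin+FK506. It was high in the Control samples alone, and metformin raised it slightly from the low level in FK506 (0.49).

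Usp18, a protease that limits interferon receptor signalling, and Rsad2, the antiviral protein viperin, also fell without FK506 and rose with it, with effects of -3.78 and 0.82 for Usp18 and of -2.43 and 1.08 for Rsad2. Mx1, an antiviral GTPase, fell in both settings, by less with FK506 (-2.84 and -2.18, interaction 0.66, adjusted p = 6.5e-05). Ifit3 was the member with a negative interaction (-1.40), since it fell only with FK506. The interferon-stimulated response element, searched as GAAANN followed by GAAA on both strands, was in 7 of the 16 windows of the 15 matched genes (43.8%), against 3.0% of all windows and 2.8% of those of the genes tested. The stretches of 2 members are shown with a match in capitals, which for Rsad2 lies on the opposite strand of the gene and starts 120 bases before its start, against 20 bases for Oas1a.
Oas1a (chr5:120907526-120907565, - strand): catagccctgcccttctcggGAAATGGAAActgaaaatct
Rsad2 (chr12:26456543-26456592, - strand): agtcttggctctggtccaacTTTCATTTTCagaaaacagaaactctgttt
For Oas1a a further match overlaps the end of the one in capitals. The list was made of genes that answer interferon, so its higher share is tied to how it was made.

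IL-2 receptor and STAT5 feedback genes, which carry the growth signal of IL-2, fell without FK506 and in most cases not with it. There were 12 positive and 0 negative called interactions among 14, with a median interaction of 0.88 and a median effect of 0.01 with FK506. Il2ra, the CD25 chain of the receptor, had 339, 342 and 338 FPKM in Control, 155, 154 and 158 in Metformin, 50.7, 52.8 and 49.1 in FK506, and 53.6, 50 and 50.7 in Metformin+FK506. The last groups overlapped, and the interaction was 1.20 (SE 0.048, adjusted p = 9.13e-12). Lif, a cytokine of the IL-6 family, fell from between 132 and 135 in Control to between 10 and 11.7 in Metformin, with an interaction of 3.93. Socs3 and Socs1, feedback inhibitors of cytokine receptors, fell only without FK506, by 2.15 and 1.46. Il2rb, the signalling chain of the receptor, moved oppositely, by -1.16 and 0.43.

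Cytokine genes of the Th2 and Th17 lineages had some of the largest interactions. Il13, a Th2 cytokine, had 279, 272 and 278 FPKM in Control, 11.5, 9.8 and 10 in Metformin, 1.39, 1.2 and 2.43 in FK506, and 1.18, 1.61 and 2.02 in Metformin+FK506. It fell by 4.76 without FK506, and with FK506 its samples overlapped and its effect was -0.00046 (95% interval from -0.47 to 0.47). The interaction of Il13 was 4.76 (SE 0.26, adjusted p = 3.86e-10). Il5 and Il10, of the same list, had interactions of 4.07 and 4.05, and Il10 rose by 0.38 with FK506. Il5 reached the level needed for testing only through the Control samples, where it is high, so its fall from Control is tied to that selection. Th2 genes had 7 positive and 0 negative called interactions among 12, with a median interaction of 1.70.

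Th17 genes had 11 positive and 0 negative called interactions among 16, with median effects of -0.86 without FK506 and 0.33 with it. Il22, Il21 and Csf2, cytokines of this lineage, had interactions of 3.58, 3.40 and 2.72, and none of the 3 passed the test with FK506. Il17a had values between 0.168 and 0.483 FPKM without FK506 and between 0.494 and 1.29 with it, its samples overlapped in both comparisons, and neither its interaction (-0.30, SE 0.59, adjusted p = 0.71) nor its effects passed the test. Of the 10 Th17 genes of a published heatmap, 10 had a positive and 0 a negative called interaction. The list was chosen on these samples and is no independent evidence of a direction.

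Th1 genes were mixed, with 8 positive and 4 negative called interactions among 14. Ifng, the Th1 cytokine interferon gamma, had 11, 10.9 and 10.3 FPKM in Control, 7.43, 6.8 and 7.69 in Metformin, 3.58, 2.97 and 2.39 in FK506, and 4.88, 5.16 and 3.96 in Metformin+FK506. It was lower in every Metformin sample than in Control and higher in every Metformin+FK506 sample than in FK506, with an interaction of 1.26 (SE 0.19, adjusted p = 4.59e-05). Tbx21, the Th1 transcription factor T-bet, moved in the same way, by -0.47 and 0.50. Il18rap and Il18r1, the chains of the receptor for IL-18, rose in both settings and by less with FK506 on the log2 scale, with interactions of -2.52 and -1.78. On the linear scale their interactions were positive, 8.58 and 21 CPM. Eomes, a related transcription factor, rose only without FK506 (2.00). The 4 Th1 genes of the heatmap had 4 positive called interactions, again from a list chosen on these samples. The call of 1 of them, Fosl2, a subunit of AP-1 (0.15), was lost with upper-quartile scaling (0.098), total-count scaling (0.11) and each of the limma fits on FPKM (0.052 to 0.097), and without Control replicate 2 (0.13) or 3 (0.14) or FK506 replicate 1 (0.13).

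Treg genes had 12 positive and 2 negative called interactions among 18, with a median interaction of 0.46. Foxp3, the transcription factor of regulatory T cells, had 3.54, 3.19 and 3.7 FPKM in Control, 2.9, 2.18 and 2.38 in Metformin, 27.7, 26.9 and 25.4 in FK506, and 32.4, 30.7 and 33.6 in Metformin+FK506. Metformin lowered it without FK506 (-0.52, adjusted p = 6.72e-05) and raised it with FK506 (0.29, adjusted p = 0.00281), without overlap of the samples in either comparison, and the interaction was 0.81 (SE 0.11, adjusted p = 1.15e-05). Lrrc32, which encodes GARP, the surface anchor of latent TGF-beta on regulatory T cells, followed Foxp3 with -0.98 and 0.37. Ikzf2 and Nrp1, which mark thymus-derived regulatory T cells, rose only with FK506, by 0.30 and 0.33. Tnfrsf9 and Il2ra, receptors that conventional T cells also gain on activation, fell only without FK506, and Tnfrsf18 and Tnfrsf4 fell in both settings. Gpr83, Capg, Ikzf4 and Itgae had no called interaction. Of the 6 Treg genes in the heatmap, 4 had a positive and 2 a negative called interaction, and these were also chosen on these samples.

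Checkpoint receptors and ligands had 10 positive and 2 negative called interactions among 12, and 6 moved oppositely, with median effects of -0.27 and 0.27. Pdcd1, the receptor PD-1, had 27.8, 25.4 and 26 FPKM in Control, 22.3, 21.2 and 21.4 in Metformin, 34.1, 34.9 and 32.1 in FK506, and 44.5, 39.5 and 44.3 in Metformin+FK506. Both comparisons were without overlap, and the interaction was 0.68 (SE 0.069, adjusted p = 6.47e-07). Ctla4, an inhibitory receptor of activated and regulatory T cells, had effects of -0.93 and 0.24, and Cd200, an inhibitory ligand, of -0.85 and 0.57. Follicular helper T cell genes were divided, with 4 positive and 3 negative called interactions among 10. Bcl6, their transcription factor, rose by 3.03 without FK506 and by 0.24 with it.

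Calcineurin-NFAT targets, the genes nearest to the action of FK506, did not share a direction. There were 8 positive and 6 negative called interactions among 20, with a median of 0.11. Il2 had 4.45, 3.85 and 3.98 FPKM in Control, 1.63, 1.64 and 2.01 in Metformin, 0.712, 0.871 and 0.626 in FK506, and 0.639, 0.854 and 1.65 in Metformin+FK506. It fell without FK506, the FK506 groups overlapped, and the interaction was 1.74 (SE 0.39, adjusted p = 0.00155). Xcl1, a chemokine, and Nr4a1, an early gene of T cell receptor signalling, went the other way, with rises of 3.70 and 1.45 that occurred only without FK506.

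The 13 respiratory chain genes of the mitochondrial genome all had a negative called interaction, and 11 of them moved without FK506 only. The median effect was 0.70 without FK506 and 0.01 with it, while the summed FPKM ranged from 14512 to 14895 in Control, from 24277 to 25204 in Metformin, from 21712 to 23308 in FK506 and from 23032 to 25418 in Metformin+FK506. COX2, a subunit of cytochrome oxidase, had 1347, 1308 and 1367 FPKM in Control, 2579, 2538 and 2513 in Metformin, 2262, 2005 and 2127 in FK506, and 2163, 2486 and 2223 in Metformin+FK506. The FK506 groups overlapped and lay nearer to Metformin than to Control, and the interaction was -0.76 (SE 0.078, adjusted p = 7.13e-07). ND3, a subunit of complex I, had the largest interaction of the list, -1.26. Complex I genes of the nucleus had no such pattern, with 6 positive and 4 negative called interactions among 27 and a median of 0.07, and across the alternative settings these counts ranged from 2 to 7 and from 1 to 8. TCA cycle genes had 5 positive and 6 negative among 16, with a median of 0.00.

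Of 20 ribosome biogenesis genes, 18 fell with metformin without FK506 and 9 with it. There were 17 positive and 2 negative called interactions, with median effects of -0.66 and -0.13. The negative ones were those of Npm1, a nucleolar chaperone that rose by 0.22 and fell by 0.17, and Ncl, nucleolin, which fell only with FK506 (-0.24). Myc, the growth transcription factor that drives them, had 118, 117 and 113 FPKM in Control, 47.4, 45.7 and 49.3 in Metformin, 19.1, 18.3 and 17.8 in FK506, and 12.5, 13.6 and 14.1 in Metformin+FK506. It fell without overlap in both settings, and by less on the log2 scale with FK506, with an interaction of 0.89 (SE 0.066, adjusted p = 1.43e-08). Polr1b, a subunit of RNA polymerase I, fell only without FK506 (-0.99). Sterol synthesis genes had 16 positive and 0 negative called interactions among 24, and 13 of them fell in both settings by less with FK506, while 8, Dhcr7 and Mvd among them, had no called interaction. Lss, lanosterol synthase, fell only without FK506 (-1.25), and Insig1, a regulator of the pathway, fell by 1.10 and by 0.24.

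ER chaperone and unfolded protein response genes had 14 negative and 1 positive called interactions among 18, with median effects of 0.23 and -0.11. Herpud1, a gene of ER-associated degradation, rose only without FK506 (0.94), and Calr, the chaperone calreticulin, rose by 0.60 and fell by 0.23. ATF4 targets, the genes of the integrated stress response, had 10 positive and 6 negative called interactions among 27 tested, and their median effect was positive in both settings, 0.43 and 0.67. Asns, asparagine synthetase, rose in both and by more with FK506 on the log2 scale (0.43 and 1.23), from a mean of 3.13 FPKM in FK506 to 7.27 in Metformin+FK506 and from 90 in Control to 124 in Metformin. On the linear scale its interaction was negative (-63 CPM), and the sign turned on that scale for 7 of the 16 called ATF4 targets. Atf3, a stress-induced transcription factor, moved oppositely, with 67.5, 65.8 and 66.4 FPKM in Control, 24.6, 28 and 26.2 in Metformin, 16.5, 16.6 and 17.8 in FK506, and 36.2, 35.6 and 34.8 in Metformin+FK506. Its samples did not overlap in either comparison, and the interaction was 2.46 (SE 0.068, adjusted p = 1.34e-13). Trib3, a pseudokinase induced by ATF4, rose in both settings by amounts that did not differ past the threshold (1.01 and 1.16).

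AMPK and mTORC1 pathway genes had 5 positive and 6 negative called interactions among 20 tested, with a median of -0.10. Sesn1, an inhibitor of mTORC1, rose by 0.78 and fell by 0.32. Ulk1, the kinase that starts autophagy, and Flcn, a regulator of lysosomal mTORC1 signalling, rose in both settings by less with FK506, with interactions of -0.77 and -0.76. Eif4ebp1, a translation inhibitor that mTORC1 phosphorylates, rose only with FK506, by 0.57. Mtor itself had no called interaction (0.18, SE 0.074, adjusted p = 0.0537), which passed the threshold when FK506 replicate 2 or Metformin+FK506 replicate 2 was left out (0.24 in each case). Prkaa1, the catalytic subunit of AMPK, had an interaction of 0.26 (adjusted p = 0.0351). That call was lost with upper-quartile scaling (0.21), total-count scaling (0.22), each of the limma fits on FPKM (0.17 to 0.23) and no filter on low values (0.26). It was also lost when Control replicate 1 or 2, Metformin replicate 1 or 2, any FK506 sample or Metformin+FK506 replicate 2 was left out, with interactions from 0.17 to 0.27. Stat3, a transcription factor of cytokine signalling, fell in both settings, by 0.86 and by 0.32. NRF2 and pentose phosphate genes had 7 positive and 2 negative called interactions among 16, and Me1, malic enzyme, moved oppositely by -1.92 and 0.85.

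Most mitosis genes were lowered more with FK506 than without it on the log2 scale. Of 22 genes, 19 had a negative and 0 a positive called interaction, with 13 lower in both settings and by more with FK506 and 6 lower only with FK506. Median effects were -0.33 and -0.83. Nusap1, a protein of the mitotic spindle, had 32.4, 34.4 and 32.5 FPKM in Control, 35.8, 38 and 35.2 in Metformin, 9.77, 10 and 11.2 in FK506, and 4.53, 5.01 and 3.89 in Metformin+FK506. Its change without FK506 did not pass the test (0.10), while every Metformin+FK506 sample was below every FK506 sample, and the interaction was -1.23 (SE 0.092, adjusted p = 1.73e-08). Kif11, a spindle motor, and Cdc20, an activator of the anaphase-promoting complex, had the same shape, with effects of -0.81 and -0.97 with FK506. Bub1, a checkpoint kinase, fell by 0.32 and by 1.25, but on the linear scale its interaction was positive (8.46 CPM), from means of 17.7 FPKM in Control and 3.77 in FK506. The sign turned on the linear scale for 11 of the 19 called mitosis genes, among them Top2a, Mki67 and Aurkb. DNA replication genes were divided, with 5 positive and 8 negative called interactions among 24 and a median of -0.06, although their median effect was negative in both settings (-0.29 and -0.47). On the linear scale the interactions of 4 of the 13 called genes, Cdc45, Mcm10, Mcm5 and Tk1, turned from negative to positive.

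**Figure D5:**
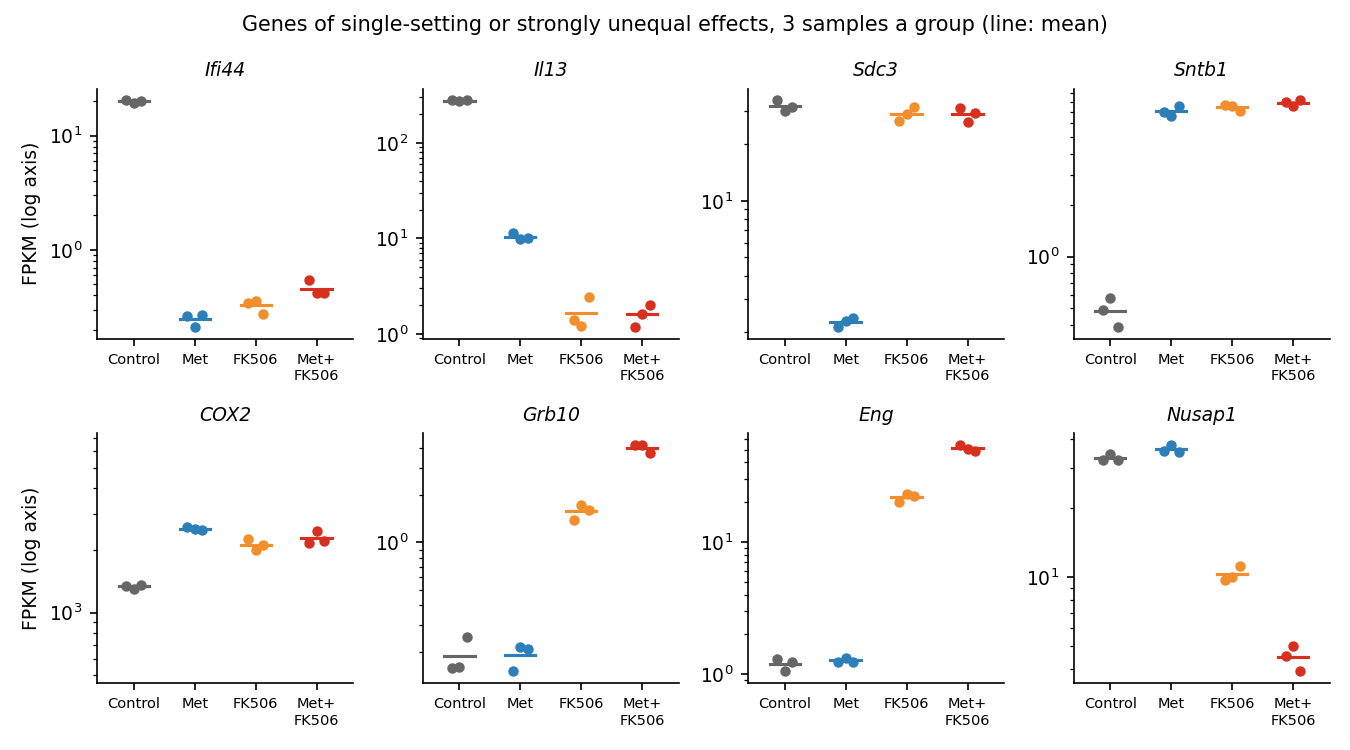
FPKM on a log axis of 8 genes with effects in a single setting or of very unequal size, in the 3 samples of each group (points) with the group mean (line). Ifi44, Il13, Sdc3, Sntb1 and COX2 differ mainly between Control and Metformin, and Grb10, Eng and Nusap1 mainly between FK506 and Metformin+FK506.

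Sntb1 and Sdc3 were among the genes with the largest effects without FK506 only, with an interval near 0 in the other setting. Sntb1, a syntrophin of the membrane skeleton, had 0.485, 0.575 and 0.387 FPKM in Control, 6.96, 6.59 and 7.61 in Metformin, 7.67, 7.6 and 7.07 in FK506, and 7.98, 7.6 and 8.19 in Metformin+FK506. Control alone was low, and the interaction was -3.79 (SE 0.10, adjusted p = 1.13e-13). Sdc3, a syndecan, was low in Metformin alone, with values between 2.13 and 2.38 there and between 26.2 and 34.2 in all other samples, and an interaction of 3.86. Tgm1, a transglutaminase, had the same shape, with 0.182 to 0.409 FPKM in Metformin, 4.72 to 5.45 in Control and 11.5 to 13.3 in the FK506 groups. Ifitm3, an interferon-induced membrane protein, fell by 4.63 without FK506 only. Klrd1, an NK cell receptor also found on T cells, A1cf, Anxa1 and Fblim1 rose without FK506 only, by between 2.46 and 2.63, although the interaction of Anxa1 was positive on the linear scale (1.78 CPM). Fblim1, with at most 6 counts in a Control sample, lost its call (-2.59) with limma on log2(FPKM + 1) (-0.25) and after quantile normalization (-0.27).

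Eng, Grb10, Nbl1, Ston2 and Star had the largest rises among genes moved with FK506 only and bounded near 0 without it, genes at the floor and predicted genes aside. Eng, the TGF-beta co-receptor endoglin, had 1.3, 1.05 and 1.24 FPKM in Control, 1.24, 1.33 and 1.24 in Metformin, 20.1, 23.2 and 22.1 in FK506, and 54.5, 50.7 and 49 in Metformin+FK506. The groups without FK506 overlapped and the others did not, and the interaction was 1.20 (SE 0.11, adjusted p = 2.38e-07). Grb10, an adaptor of insulin receptor signalling, rose by 1.37, from between 1.4 and 1.73 to between 3.7 and 4.2. Nbl1, an antagonist of bone morphogenetic proteins, had 2.21, 2.1 and 2.12 FPKM in FK506 and 7.57, 6.73 and 7.2 in Metformin+FK506, which overlapped the range of 5.71 to 8.07 in the groups without FK506. Ston2 and Star rose by 1.20 and 1.17. The marker sums of B cells and myeloid cells were also far higher in the FK506 groups, and the part of these cells in the rises was not tested. Kynu, the kynureninase of tryptophan breakdown, fell by 1.80 with FK506, and Cdkn3, Pif1, Ska1 and Iqgap3, the others of the 5 with the largest fall, by between 1.24 and 1.61.

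Several of the largest interactions are uncertain. Igkv8-34, an immunoglobulin segment of a multigene family, had the most negative interaction (-6.08) from values of 8.87, 10.4 and 4.52 in FK506 and of 0 to 0.255 in all other samples, and it lost its call without Metformin replicate 3 (-5.33). Ly6g, of a family of near copies, had an interaction of 4.92 and was the only neutrophil marker of 6 with a call. The other 5 were at the floor in Control and Metformin. Enpp2, Muc2, Cd1d2, Gh, Try5 and Xcl1 completed the 10 largest in each direction, with low values in at least 1 group. Igkv8-34 entered the test only through the FK506 samples, Ifi44, Ly6g and Muc2 only through Control, and A1cf and Try5 only through Metformin, in each case the group with the high values. Try5 lost its call with DESeq2 (-4.38). Without Metformin+FK506 replicate 2 the interaction of Muc2 was 1.59 and not called, and without FK506 replicate 1 that of Gh was -3.13 and not called. Among markers of other cells, 1 of 10 myeloid markers had a positive call (Csf1r, which was at the floor without FK506, with at most 2 counts in any Control or Metformin sample) and 2 a negative call, and of the markers tested for dendritic cells 2 of 2 were negative, for NK cells 1 of 3 was positive and 1 negative, for CD8 T cells 1 of 2 was negative, and for basophils and mast cells 0 of 3 had a call. The basophil genes Mcpt8 and Prss34 were listed at 0 in every sample without FK506 and in every Metformin+FK506 sample. Their means in FK506 were 2.91 and 4.85 FPKM, from which both fell. Mcpt8 and Prss34 entered the test only through the FK506 samples, so this fall is tied to that selection. Since Control and Metformin held only 0 for them, their lack of a called interaction is not informative. The summed FPKM of the basophil and mast cell markers went from between 6.29 and 11.8 in FK506 to between 1.08 and 1.56 in Metformin+FK506, that of the neutrophil markers from between 30.6 and 40.7 to between 22 and 23.3, and that of the dendritic cell markers from between 52.2 and 58.7 to between 34.9 and 37.3. The part of these cells in the interactions was not tested. The call of the CD8 T cell gene Cd8a (-0.53) was lost without Metformin replicate 1 (-0.51), FK506 replicate 1 (-0.45) or Metformin+FK506 replicate 1 (-0.43) and after quantile normalization (-0.27). The negative call among the NK cell markers was Klre1 (-2.12), which lost it when Control replicate 2, Metformin replicate 1 or 2, FK506 replicate 1 or Metformin+FK506 replicate 1 was left out, with interactions from -1.99 to -1.38. It also lost it with no filter on low values (-2.10) and in the limma fits on FPKM (-1.22 to -0.37). CD4 T cell defining genes had 5 positive and 2 negative called interactions among 12, with a median of 0.03, and Cd4 itself had none (-0.097).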

How the data were processed

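Poly(A) RNA of 12 samples was sequenced. The deposited table holds raw read counts for each gene and FPKM values as the authors computed them, and another 12 per-sample columns (TPM) were not used. The submitters' processing notes name bcl2fastq 2.20.0, Trimmomatic, HISAT2 2.1.0, StringTie 2.1.3b and the build mm10, without their roles. The counting program, the treatment of shared reads and the use of strand are not given in the sources used here, so paralogs and overlapping genes are uncertain. FPKM and scaled counts are normalized differently and need not give equal folds.

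Counts were fitted with edgeR 4.0.16 (TMM, glmQLFit and glmQLFTest) in R 4.3.3, with 4 groups in 1 fit and 8 residual degrees of freedom. The p-values of the interaction and of each effect of metformin were adjusted by Benjamini-Hochberg over 15197 genes and called under 0.05. The floor was set at 3 counts in each of the 3 samples of a group and covers counting error only. The script was tested on simulated data. Alternatives used DESeq2 1.42.0, limma 3.58.1, other scalings, filters and thresholds, a replicate block, and each sample left out.

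Genes named are the 10 largest interactions in each direction, the 8 largest opposite effects in each direction (by the smaller effect), the 5 largest single-setting effects in each direction whose other effect had an interval within 0.5 of 0, members of 34 gene lists, and genes of proteins the study names. Genes at the floor in any group and predicted genes were left out of these rankings. Examples from a list are those with the largest interactions, and further members were chosen after their values were seen. A few genes that meet these rules are not reported here. The members and lists were chosen with earlier results of these data known. Ero1a was not found in the table. Same-numbered samples had correlations of deviations from their group means between -0.1456 and 0.0853, so the numbers do not pair the samples. No 2 libraries of a group agreed within sampling noise (chi-square per degree of freedom from 4.19 to 17.1).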

Additional observations from a re-analysis of the deposited data

Results flagged for a closer look

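An interaction is itself a test of whether 2 settings differ, so each count of called interactions is listed for a closer look on that ground: 7064 genes in all, 1292 moved oppositely, 3843 moved without FK506 only, 841 moved with FK506 only, 697 moved the same way by less with FK506 and 152 the same way by more.

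Among single genes, those with the largest opposite effects are listed by their log2 interaction, since the effects of metformin in the settings differed in sign and the difference was tested. They are Bcar1 (7.06), Mgarp (5.16), Adm (3.85), Esm1 (3.85), Podxl (3.58), Zcchc14 (3.29), Fam171a1 (3.22) and Inpp5j (2.94), lower without FK506 and higher with it. In the other direction they are Havcr1 (-4.42), Stxbp6 (-4.33), Grm6 (-4.00), Oosp1 (-3.96), Cr2 (-3.61), Shank1 (-3.47, not called with DESeq2), Amn (-2.81) and Pld4 (-2.69). The interactions of the other named genes are in the report. Single outlying samples within the groups of 3 were not tested for.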

How the results depend on the processing

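Leaving out each of the 12 samples in turn gave between 6485 and 7093 called interactions, 3122 to 3414 positive and 3323 to 3695 negative. The classes ranged from 1034 to 1306 genes moved oppositely, 3517 to 4031 without FK506 only, 664 to 855 with FK506 only, 522 to 675 the same way by less and 113 to 175 the same way by more. With the replicate number as a block, 6792 interactions were called, 48.2% of them positive, Klre1 (-1.92) and Prkaa1 (0.26) lost their calls, and the numbers did not pair the samples. The positive share of the called interactions, 48.3% as reported, was 41.2% with upper-quartile scaling, 42.7% with total-count scaling, and 42.3% and 41.5% with limma on log2(FPKM + 1) and log2(FPKM + 0.1).

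With an absolute interaction of at least 1 required, 1813 remained called, 898 positive and 915 negative, with 602 moved oppositely, 803 without FK506 only, 216 with FK506 only, 129 the same way by less and 15 by more. Under an adjusted p of 0.01, 760 moved oppositely, 554 with FK506 only, 366 the same way by less and 86 by more. Genes moved with FK506 only numbered 1329 with limma on log2(FPKM + 1) and 1355 after quantile normalization. DESeq2 called 7217 interactions.

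Of 160 named genes, 138 held their sign and their side of the threshold in every alternative. On the linear CPM scale the sign reversed for Anxa1 (1.78), Bub1 (8.46), Cd68 (12.1), Chac1 (-6.98), Il17a (0.027), Il18r1 (21), Il18rap (8.58) and Mcm10 (5.86), and over all 375 called genes of the lists and rules it turned for 29. Il17a, not called, also reversed after quantile normalization (0.022) and ranged from -0.63 to 0.063 over the samples left out, with the reversal without FK506 replicate 3. The cause of these changes was not tested, apart from the stricter thresholds, which call fewer genes by construction. With limma-voom and group weights, an alternative chosen after seeing the data, Gzma and Klre1 lost their calls and Mtor gained one. With DESeq2, Shank1 and Try5 lost theirs.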
